A study of Mus musculus with 6 samples.

Results

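The genes described here encode antibacterial lectins and peptides that the intestinal epithelium releases toward the lumen, with an enzyme that activates some of these peptides. They are Lypd8, Zg16, Reg3b, Reg3g, Reg3a, Reg4, Ang4, Itln1, Lyz1 and Mmp7. They were chosen by name as epithelial antibacterial genes, and their expected counts were summed per gene over RefSeq transcripts. These are 10 of 19949 genes and unnamed entries in the tables, and all 10 had a count in at least 1 library. RNA sequencing was done on colon from STAT6-/- mice, which carry a disrupted gene for the transcription factor STAT6, and from wild-type (WT) mice. All were BALB/c mice of 6 to 8 weeks given 3% dextran sulfate sodium (DSS) ad libitum for 3 days, so every library comes from colon exposed to this epithelial irritant and there was no untreated group. Each genotype had 3 libraries. The labels do not say whether these came from separate mice, and a p-value here therefore refers to variation among libraries that could in part be technical. Per the labels' protocols the luminal side was scraped to clear content and mucus before RNA extraction, and the source is called both proximal intestine and colon.

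Secreted antibacterial proteins keep bacteria at a distance from the gut surface. Lypd8 binds the flagella of Gram-negative bacteria, Zg16 is a goblet cell lectin that binds peptidoglycan of Gram-positive bacteria, and Reg3b and Reg3g are C-type lectins induced by interleukin-22 through STAT3. STAT6 relays interleukin-4 and interleukin-13, which act on goblet cells and on the expression of Ang4 and Retnlb in the mouse gut.

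The libraries held 17122315 to 19555450 expected counts. Stat6 itself had 49.9, 38.5 and 53.2 CPM (counts scaled to a common library size with TMM factors) in the STAT6-/- libraries and 91.7, 104 and 88.8 in the WT libraries. It was 2.01-fold lower in STAT6-/-, with an SE of 0.16 on the log2 scale, and fell (edgeR quasi-likelihood test, adjusted p = 0.0134). Xist stood at 0.264 to 0.992 CPM in the STAT6-/- libraries and at 352 to 545 CPM in the WT libraries, and Ddx3y at 55.1 ± 4.33 against 0.08 ± 0.0382 CPM (SD, n = 3 each), so genotype and sex cannot be told apart in any comparison. STAT6-/- replicate 1 stood apart in some of the posterior Hox genes. Summed CPM of Hoxd10 to Hoxd13, homeobox genes of the posterior body, was 6.72 there, 250 and 219 in the other STAT6-/- libraries and 369, 326 and 294 in the WT libraries. Of the other 6 genes of that list, Hoxb13 was also lowest there (149 against 247 to 454 CPM), whereas Hoxa10, Hoxa11, Hoxa13, Hoxb9 and Hoxc10 lay inside the range of the other libraries. STAT6-/- replicate 2 lay nearest to the WT libraries, at -21.7 on the first principal component against -85.6 and -68.7 for replicates 1 and 3 and 47.8 to 67.3 for WT. In these bulk samples, fewer cells of a type and less RNA per cell cannot be told apart. General epithelial markers summed to 13430, 17190 and 22470 CPM in STAT6-/- and 10950, 13420 and 9271 CPM in WT. Smooth muscle and stromal markers summed to 3913, 4165 and 8024 CPM against 11950, 12260 and 15590 CPM. Of the 10 genes of the latter list 5 fell (50%, where 11.5% of all tested genes fell), and 1 without STAT6-/- replicate 1 or WT replicate 1, 2 without STAT6-/- replicate 2. The part of these marker differences in the results below was not tested. Adipocyte markers summed to 11.5, 9.87 and 32.9 CPM against 60.2, 107 and 411 CPM. Of 6 tested genes 5 fell (83.3%), a count that was 2 with voom, 3 without WT replicate 1 and 0 in edgeR without STAT6-/- replicate 1 (5 at an unadjusted p below 0.05).

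By FPKM, the deposited level per transcript length, the 10 genes spanned nearly the whole range of the transcriptome. Lypd8 was the most abundant gene in each of the 6 libraries. Zg16 ranked 2, 2 and 8 in STAT6-/- and 3, 3 and 2 in WT. Lypd8 and Zg16 together made up 92.1% to 99.4% of the counts of the 10 genes. Next in the order of mean FPKM came Reg4 at 236, Reg3b at 187, Reg3g at 68.6 and Lyz1 at 54.0, and these neighbours overlapped in their ranges over libraries. The Reg3b and Reg3g means rest on STAT6-/- replicate 1. Ang4, Itln1 and Mmp7 had means of 0.813, 0.543 and 0.442 FPKM, again with overlapping ranges, and Reg3a was last at 0.0317 FPKM. The order was identical for scaled CPM per kilobase of transcript. The 10 genes together took 1.65%, 2.46% and 1.93% of all counts in STAT6-/- and 2.91%, 2.87% and 2.52% in WT, without overlap.

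**Figure D1:**
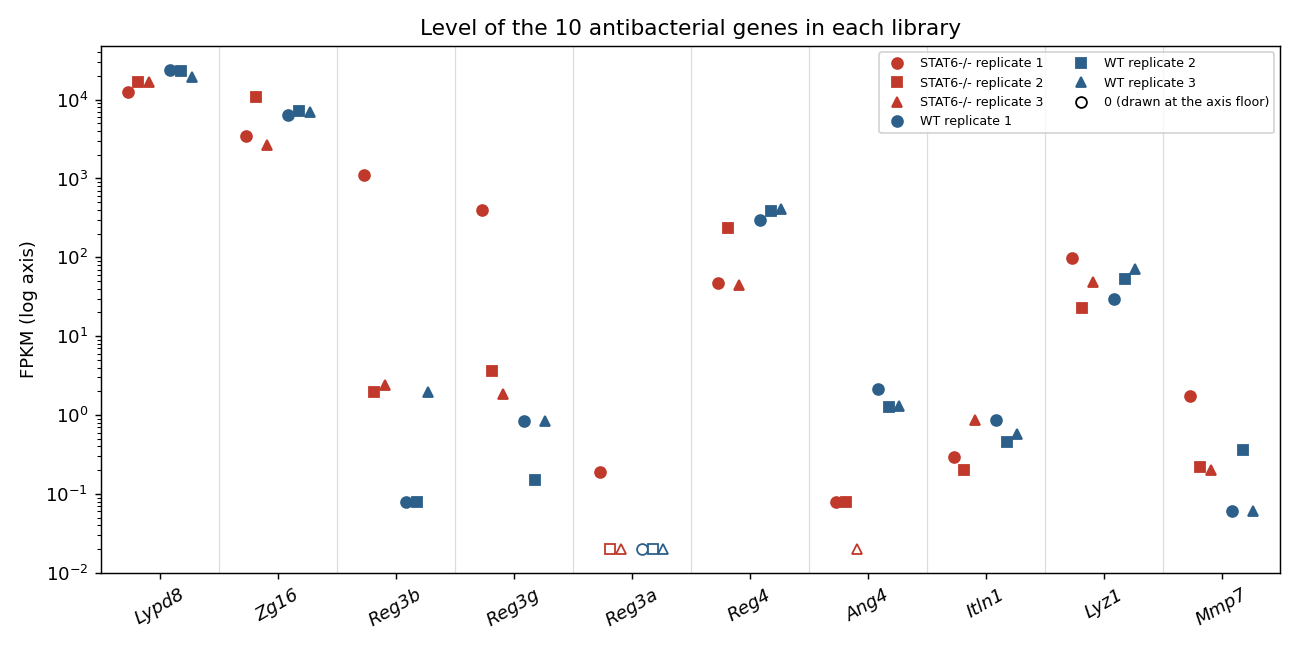
FPKM (log axis) of the 10 genes in each of the 6 libraries, STAT6-/- in red and WT in blue, with open symbols for a value of 0. Lypd8 lies between 12570 and 23811 FPKM in all libraries, whereas Reg3b spans 0.08 to 1118 FPKM and Reg3a is above 0 in 1 library.

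Of the 10 genes, 8 had enough counts to be tested, and Ang4 was the member that passed (adjusted p below 0.05), in the downward direction. That is 1 of 8, against 22.9% of all 15066 tested genes, 11.5% that fell and 11.4% that rose. At an unadjusted p below 0.05 there were 4 of the 8 members and 6067 of all tested genes. The median log2 fold change of the 8 was -0.44, against 0.01 over all tested genes. The groups did not overlap in scaled CPM for 5 of the 8 (Lypd8, Reg3b, Reg3g, Reg4 and Ang4), where the share over all tested genes was 46.5%. Ang4 passed the count filter through its WT libraries, so these counts describe the tested genes and not the whole set.

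**Figure D2:**
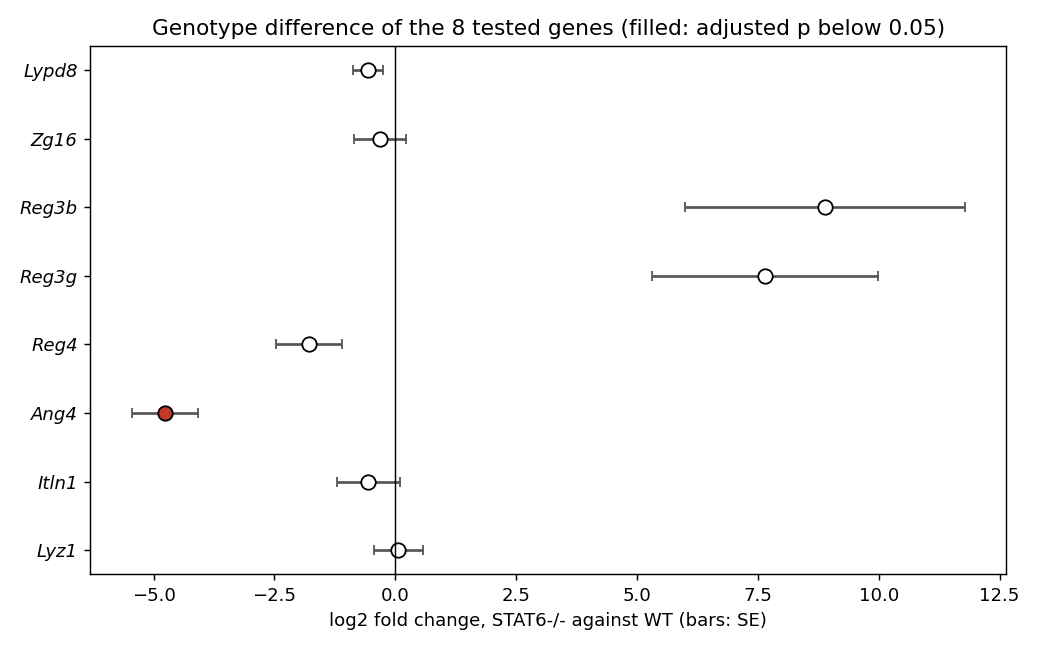
Log2 fold change of STAT6-/- against WT (edgeR) for the 8 tested genes, with bars of 1 SE and a filled point for an adjusted p below 0.05. Ang4 at -4.76 carries the filled point, and Reg3b and Reg3g have the widest bars.

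Lypd8 (Entrez gene 70163, mm10 chr11:58379032-58390541) had 11932, 17685 and 18155 CPM in STAT6-/- and 25182, 25804 and 19847 CPM in WT. Each STAT6-/- library was lower than each WT library, and STAT6-/- replicate 1 was the lowest. Means were 15924 ± 3465 against 23611 ± 3274 CPM (SD, n = 3 each), a log2 fold change of -0.57 ± 0.30 (SE) that did not pass (edgeR adjusted p = 0.203). In share of all counts Lypd8 made up 1.31%, 1.76% and 1.76% against 2.48%, 2.39% and 2.04%. Of its 2 transcripts in the tables, NM_027339 carried 99.9% of the counts in every library. The summed epithelial markers were higher in each STAT6-/- library than in each WT library. The margin was narrow, at 13430 CPM in STAT6-/- replicate 1 against 13420 CPM in WT replicate 2. Scaling to that sum gave a Lypd8 log2 fold change of -1.22 (adjusted p = 0.00961). That scaling, chosen after the data were seen, moved the median of all genes to -0.62.

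The absorptive colonocyte markers, a list that contains Lypd8, moved in both directions: 3 of 15 rose (Clca4a, Krt20 and Slc9a3), 1 fell (Car1) and the median log2 fold change was -0.23. The share called, 26.7%, was near the 22.9% of all tested genes. Without STAT6-/- replicate 2, 4 rose and 5 fell, and without replicate 3, 5 rose, 1 fell and the median was 0.24. Leaving out STAT6-/- replicate 1 or WT replicate 1 gave 1 that rose and 1 that fell. Car1, a carbonic anhydrase of the colonic surface, had 108, 144 and 224 CPM in STAT6-/- and 1500, 1922 and 1604 CPM in WT (-3.40 ± 0.33, adjusted p = 0.00732). Clca4a rose from 44.5 ± 13.9 to 465 ± 213 CPM (SD, n = 3 each). Krt20, a keratin of mature surface cells, rose by 1.48 ± 0.34 on the log2 scale. The genes most like Lypd8 over the 6 libraries, among 5637 genes searched, were Dusp16, a phosphatase of MAP kinases, Ryk, a Wnt receptor, and Rybp, a Polycomb component, each with a Pearson r of 0.987 for log2 CPM. These points share their libraries and the genotype difference, so r is given as a description.

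Zg16 (gene 69036, chr7:127050156-127052675) had 1927, 6701 and 1667 CPM in STAT6-/- and 3993, 4729 and 4132 CPM in WT. STAT6-/- replicate 2 was the highest of all 6 libraries, whereas replicates 1 and 3 were below every WT library. The log2 fold change was -0.32 ± 0.54 and did not pass (edgeR adjusted p = 0.682). Without STAT6-/- replicate 2 it was -1.23 (adjusted p = 0.0107), and without STAT6-/- replicate 3 it was 0.06. Spread within STAT6-/- was far wider than in WT, with SDs of 2834 and 391 CPM.

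Reg4 (gene 67709, chr3:98222138-98236748), a C-type lectin that marks enteroendocrine and deep crypt secretory cells of the colon, had 42.8, 237 and 45.5 CPM in STAT6-/- and 305, 420 and 397 CPM in WT. As with Zg16, STAT6-/- replicate 2 was the highest of its group, yet it stayed below every WT library. The fitted level was 3.44-fold lower in STAT6-/-, a log2 fold change of -1.78 ± 0.68 that did not pass (edgeR adjusted p = 0.0952). Without STAT6-/- replicate 2 it was -3.05 (adjusted p = 0.00163). DESeq2 called Reg4 on all 6 libraries at an adjusted p of 0.0167. Of the 8 deep crypt secretory markers tested 0 passed in edgeR, with 5 at an unadjusted p below 0.05. DESeq2 called 5 of them, 3 higher and 2 lower, and voom 0. The edgeR count was 3 of the 8 without STAT6-/- replicate 2 and 2 without replicate 3. The list was mixed, with 5 positive and 3 negative log2 fold changes, Reg4 among the negative. Kit, which also marks these cells, had 26.8, 33.0 and 20.05 CPM against 20.6, 20.04 and 25.0 CPM (log2 fold change 0.28 ± 0.22, adjusted p = 0.363). Egf had 1.45, 2.09 and 0.846 CPM against 2.25, 3.85 and 4.25 CPM (-1.24 ± 0.44, edgeR adjusted p = 0.0831). Dll1 had a log2 fold change of 1.03 ± 0.38 (edgeR adjusted p = 0.0905).

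Of 16 goblet cell markers tested, Zg16 among them, 25% were called, near the 22.9% of all tested genes. Of them 3 rose (Galnt12, Creb3l1 and Retnlb), 1 fell (Clca1) and the median log2 fold change was 0.07. These counts moved with each STAT6-/- library: without replicate 1, 2 rose and 0 fell (median 0.39), without replicate 2, 3 rose and 6 fell (median -0.43), and without replicate 3, 6 rose and 1 fell (median 0.36). Muc2, the main gel-forming mucin, had 3286, 3940 and 1961 CPM in STAT6-/- and 1817, 1702 and 1699 CPM in WT (0.82 ± 0.29, adjusted p = 0.0835). Clca1, a secreted protease of goblet cell mucus, had 1863, 3472 and 468 CPM against 11625, 10176 and 10265 CPM and fell by 2.47 ± 0.66 on the log2 scale. Galnt12, which starts mucin O-glycans, rose 1.89-fold, and Creb3l1, a secretory pathway transcription factor, rose 2.22-fold.

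Ratios within a library do not depend on its scaling, and 6 were compared between genotypes after the levels had been seen. The FPKM ratio of Reg4 to Muc2 was 0.097, 0.449 and 0.173 in STAT6-/- and 1.25, 1.84 and 1.74 in WT. For Zg16 to Muc2 it was 7.17, 20.8 and 10.4 against 26.9, 34.0 and 29.7. Both were lower in each STAT6-/- library, replicate 2 included. Muc2 was itself higher in each STAT6-/- library, so each of the 15 tested goblet markers other than Zg16 was also taken as the reference. Reg4 was lower in every STAT6-/- library against 12 of the 15, Muc2 included, and overlapped for 3 (Clca1, Tff3 and Klk1). Those 3 markers, like Reg4, were themselves lower in each STAT6-/- library. The Reg4 ratios thus largely restate its own level and are not separate support. Zg16 had no uniform direction: it was lower against 7, higher against 3 and overlapped for 5. Its FPKM ratio to Tff3, a goblet cell trefoil peptide, was 3.03, 2.52 and 2.18 in STAT6-/- and 1.11, 0.999 and 1.05 in WT. Zg16 to Reg4 was higher in each STAT6-/- library, at 73.9, 46.4 and 60.1 against 21.5, 18.5 and 17.1. Reg4 to Muc2, Zg16 to Muc2 and Zg16 to Reg4 each gave p = 0.1 in a two-sided exact permutation test, the smallest value that 3 against 3 libraries allow, and 0.15 after adjustment over the 6 ratios. Lypd8 to Zg16, at 3.64, 1.55 and 6.40 against 3.70, 3.21 and 2.82, overlapped between genotypes (exact permutation p = 1).

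**Figure D3:**
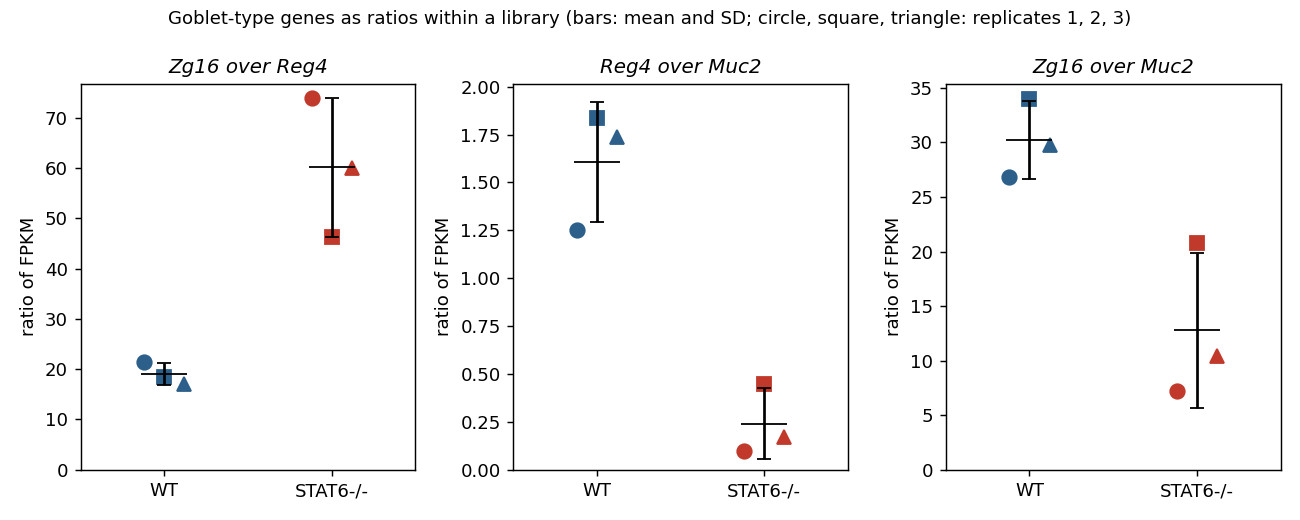
FPKM ratios within each library for STAT6-/- (red) and WT (blue) on linear axes from 0, with bars for mean and SD. Zg16 over Reg4 lies above, and Reg4 over Muc2 and Zg16 over Muc2 below, the WT libraries in each STAT6-/- library.

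Reg3b (gene 18489, chr6:78370885-78373466) and Reg3g (gene 19695, chr6:78466269-78468874) lie in a cluster with Reg3a (gene 19694, chr6:78380709-78383839), with 7.24 kb between Reg3b and Reg3a and 82.4 kb between Reg3a and Reg3g. The 250 bases before the start of Reg3b and of Reg3g (RefSeq, GRCm38.p6) are shown because both genes were high in the same library. Capitals mark a match to TTCNNNGAA, the letters that STAT proteins such as STAT3 bind, and the sequences read 5′ to 3′ on the strand of the gene.
Reg3b chr6:78370635-78370884 (+ strand): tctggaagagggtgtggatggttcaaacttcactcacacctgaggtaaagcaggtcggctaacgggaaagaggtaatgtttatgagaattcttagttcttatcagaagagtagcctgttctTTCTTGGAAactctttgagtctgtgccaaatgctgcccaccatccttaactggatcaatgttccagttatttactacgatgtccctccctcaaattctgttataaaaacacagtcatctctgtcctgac
Reg3g chr6:78468875-78469124 (- strand): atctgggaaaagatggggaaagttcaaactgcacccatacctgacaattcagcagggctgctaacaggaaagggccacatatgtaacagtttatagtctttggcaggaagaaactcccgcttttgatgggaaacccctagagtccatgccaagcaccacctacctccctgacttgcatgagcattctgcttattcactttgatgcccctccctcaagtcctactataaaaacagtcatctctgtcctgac
The sequences were 68.4% identical (173 of 253 aligned columns). Identity was 44.9% for Reg3b and Reg3a, 47.2% for Reg3g and Reg3a, 47.5% for Reg3b and Reg4 and 44.8% for Reg3b and Ang4. The windows were aligned from end to end, which can miss a shared stretch at another distance from the start. The values with Reg3a therefore do not show how far its promoter has diverged. A match, whose letters read alike on both strands, lies in the Reg3b window, starting 129 bases before the start. No match was found in the Reg3g window, which says only that these letters are not there. Over all promoters of the table (250 bases before to 50 after the start), 8.3% (2726 of 32851) held a match, and so did 2 of the 9 members with a promoter there. With a spacer of 4 bases between TTC and GAA, the form preferred by STAT6, 6.95% of promoters and 0 of the 9 members held one.

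Reg3b had 751, 1.46 and 1.85 CPM in STAT6-/- and 0.059, 0.062 and 1.42 CPM in WT, from 16100, 28 and 35 counts against 1, 1 and 25. STAT6-/- replicate 1 held 406 times the next highest level, and STAT6-/- replicates 2 and 3 were close to WT replicate 3. In FPKM Reg3b ranked 41 in that library and between 10617 and 16604 in the other 5. The groups did not overlap, but the log2 fold change of 8.89 ± 2.90 did not pass (edgeR adjusted p = 0.0651).

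Reg3g had 283, 2.82 and 1.48 CPM in STAT6-/- and 0.651, 0.124 and 0.624 CPM in WT. Again STAT6-/- replicate 1 stood apart, at 100 times the next highest level, and again the groups did not overlap. The log2 fold change was 7.65 ± 2.33 (adjusted p = 0.0549). Without STAT6-/- replicate 1 it was 2.21 (adjusted p = 0.0845), and for Reg3b it was 1.68 (adjusted p = 0.342). Both genes passed without STAT6-/- replicate 2 (Reg3b 0.0303, Reg3g 0.0270) and without STAT6-/- replicate 3 (0.0473 and 0.0360), in which replicate 1 is 1 of 2 STAT6-/- libraries. Reg3a had 3 counts in STAT6-/- replicate 1 and 0 in the other libraries, where 3 counts would be 0.157 to 0.186 CPM, so it was not tested.

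**Figure D4:**
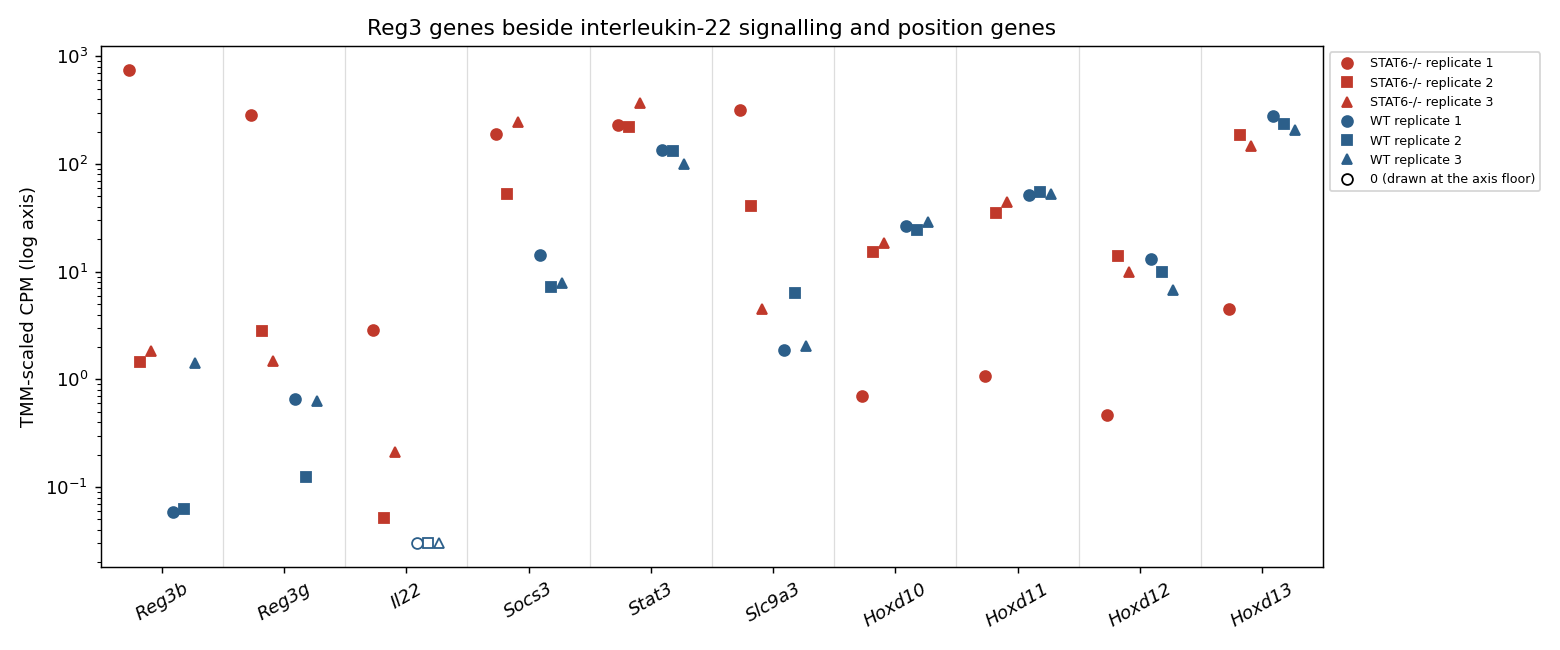
Scaled CPM (log axis) of Reg3b and Reg3g beside Il22, Socs3, Stat3, Slc9a3 and Hoxd10 to Hoxd13 in each library. STAT6-/- replicate 1 (red circles) is the highest library for Reg3b, Reg3g, Il22 and Slc9a3 and the lowest for each Hoxd gene.

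The library with high Reg3b and Reg3g also stood apart in other genes, which were chosen for description after their values were seen. Il22, which encodes the cytokine that induces both lectins, had 2.85, 0.052 and 0.212 CPM in STAT6-/- and 0 counts in the 3 WT libraries. Slc9a3, a sodium-proton exchanger of the apical membrane, had 320, 40.6 and 4.50 CPM against 1.89, 6.39 and 2.04 CPM. The Hoxd genes were lowest in that library, as given above, with Hoxd13 at 4.48 CPM there and 146 to 278 CPM in the other 5. Hoxa13 had 20.2 CPM there and 14.7 to 25.6 CPM in the others. Socs3, a feedback inhibitor induced by STAT3, had 191, 52.3 and 245 CPM in STAT6-/- and 14.2, 7.13 and 7.83 CPM in WT. Its highest level was in STAT6-/- replicate 3. Whether the site sampled along the gut or interleukin-22 signalling has a part in the Reg3 values was not tested. The genes most like Reg3b over the 6 libraries were Pds5a, a cohesin regulator (r = 0.977), Tars, a threonyl-tRNA synthetase (r = 0.976), and Exosc10, an exosome nuclease (r = 0.975). Each was highest in STAT6-/- replicate 1, but by far less than Reg3b. Pds5a had 66.6 CPM there and 51.7 to 55.7 CPM in the other libraries. With Reg3b so high in 1 library, r leans on that library.

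Ang4 (gene 219033, chr14:51763892-51773590), a bactericidal ribonuclease of Paneth and goblet cells, was the member that passed the test. The 250 bases before its start are shown because its fall is the call among these genes, and because it is the other member with a TTCNNNGAA match, in capitals, 192 bases before the start.
Ang4 chr14:51773591-51773840 (- strand): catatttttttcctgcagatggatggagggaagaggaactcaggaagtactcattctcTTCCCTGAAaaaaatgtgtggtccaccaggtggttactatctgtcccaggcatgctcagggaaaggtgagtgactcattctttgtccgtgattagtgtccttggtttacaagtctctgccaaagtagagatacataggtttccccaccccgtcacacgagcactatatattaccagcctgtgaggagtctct
Ang4 had 0.047, 0.052 and 0 CPM in STAT6-/- and 1.48, 0.931 and 0.851 CPM in WT, from 1, 1 and 0 counts against 25, 15 and 15. Every WT library was higher than every STAT6-/- library. The log2 fold change was -4.76 ± 0.69 (edgeR adjusted p = 0.0112), and its size depends on the model because of the few STAT6-/- counts. From the summed counts, 2 against 55, WT was 32.3-fold higher relative to the TMM-scaled library sizes, with an exact 95% interval of 8.52 to 273 that covers counting error only. The call was lost without WT replicate 2 (adjusted p = 0.0641) or WT replicate 3 (0.0683), with log2 fold changes of -4.87 and -4.92.

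Reads could be shared between Ang4 and its close relatives, so its own level is uncertain. The sum of Ang, Ang2 and Ang4, which were listed in the tables, was 1.77, 2.72 and 1.11 CPM in STAT6-/- and 5.26, 6.02 and 5.05 CPM in WT. This sum fell by 1.54 ± 0.38 on the log2 scale (adjusted p = 0.0316). Most of it was Ang, with 37, 51 and 21 counts in STAT6-/- and 64, 82 and 73 in WT. Alone, Ang had a log2 fold change of -1.24 ± 0.39 that did not pass (edgeR adjusted p = 0.0601). The sum therefore says little about Ang4 itself. Rnase4, a ribonuclease of the same family, fell, with 33.4, 50.3 and 35.8 CPM against 85.2, 136 and 148 CPM. The genes most like Ang4 were Rsf1, a chromatin remodeling factor (r = 0.991), Sfr1, a recombination factor (r = 0.987), and Aprt, an adenine salvage enzyme (r = 0.984).

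Itln1 (gene 16429, chr1:171518123-171535325), an intelectin that binds microbial sugars, was near the detection floor. It had 6, 4 and 19 counts in STAT6-/- and 17, 9 and 11 counts in WT, or 0.28, 0.209 and 1.01 CPM against 1.01, 0.558 and 0.624 CPM. The groups overlapped, and the log2 fold change was -0.55 ± 0.66 (edgeR adjusted p = 0.555). A 3-count limit stood at 0.14 to 0.186 scaled CPM, so the lowest Itln1 value lies just above it.

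Mmp7 (gene 17393, chr9:7692090-7699585), the protease that activates defensins in mouse Paneth cells, had 36, 4 and 4 counts in STAT6-/- and 1, 6 and 1 in WT and was not tested. Most of its counts came from STAT6-/- replicate 1. In STAT6-/- replicates 1 and 3 they were assigned to the transcript NM_010810, and in the other 4 libraries to NM_001319986, at 100% each. With at most 6 counts in 5 of the libraries, this assignment carries little information on transcript use.

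Lyz1 (gene 17110, chr10:117287795-117292868), the lysozyme of Paneth cells, had 114, 29.0 and 64.2 CPM in STAT6-/- and 37.7, 73.0 and 88.0 CPM in WT. The groups overlapped, with the lowest and the highest level both in STAT6-/- libraries, and the log2 fold change was 0.06 ± 0.51 (edgeR adjusted p = 0.938). Its sign turned in voom, in log2(FPKM + 0.1), with a replicate block, under epithelial scaling and without STAT6-/- replicate 1 or WT replicate 1. Lyz2, the lysozyme of macrophages and neutrophils, lies 5.52 kb away and is near-identical, so the authors' counting could split reads between the pair and both levels are uncertain. Lyz2 had 740, 143 and 387 CPM in STAT6-/- and 180, 354 and 363 CPM in WT, the same order of libraries within STAT6-/- as Lyz1. Lyz1 made up 13.4%, 16.9% and 14.2% of the counts of both in STAT6-/- and 17.3%, 17.1% and 19.5% in WT (two-sided exact permutation p = 0.1, adjusted 0.15 over the 6 ratios). The sum of Lyz1 and Lyz2 had a log2 fold change of 0.43 ± 0.56 (adjusted p = 0.593). Summed macrophage and neutrophil markers, Lyz2 included, were 1880, 779 and 2351 CPM in STAT6-/- and 754, 942 and 879 CPM in WT, and their part in the Lyz1 values was not tested.

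Paneth cells reside in the small intestine, and their defining defensins were nearly absent. Of 12 Defa genes on the list, 5 were listed in the deposited data, with 8, 0 and 0 counts in all in STAT6-/- and 0, 0 and 14 in WT. Of those 5, Defa5 had a rounded count of 0 in every library. Of the 5 Paneth list genes tested 2 fell, Ang4 and Mptx2 (40%, where 11.5% of all tested genes fell). Mptx2, a mucosal pentraxin, had 2.85, 0.731 and 0.846 CPM in STAT6-/- and 25.5, 16.9 and 20.6 CPM in WT (-3.82 ± 0.56, adjusted p = 0.0116). Lyz1 was the most abundant gene of that list by mean FPKM. Among 16 small intestine enterocyte markers, the brush border disaccharidase Sis was at 0 to 0.227 CPM and the fatty acid binding protein Fabp1 at 0 to 0.059 CPM over the 6 libraries. Other genes of that list were expressed, such as Slc5a1 at 99.2 to 196 CPM and Slc10a2 at 8.77 to 288 CPM. Of its 8 tested genes, 2 rose and 3 fell (62.5%, against 22.9% of all tested genes). In edgeR 0 passed without WT replicate 2 or WT replicate 3, with 5 at an unadjusted p below 0.05 in each case.

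**Figure D5:**
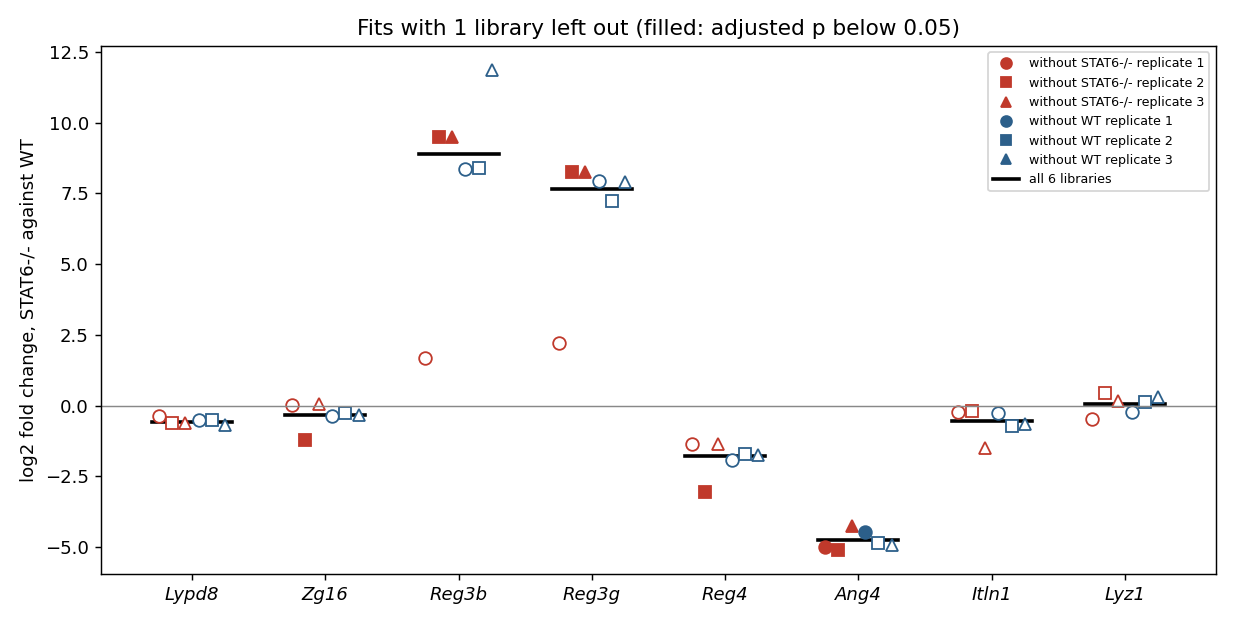
Log2 fold change of each tested gene with all 6 libraries and with each library left out in turn (black line for all libraries, a symbol per library left out, filled for an adjusted p below 0.05). Reg3b drops from 8.89 to 1.68 without STAT6-/- replicate 1, and Ang4 stays between -5.09 and -4.24.

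Other secreted antibacterial genes of the gut were compared as a separate list of 45, which held no member. Of these, 32 were tested: 10 rose and 1 fell (34.4% called, against 22.9% of all tested genes), with a median log2 fold change of 1.07. Without STAT6-/- replicate 1, 10 of 33 rose and 1 fell, and without STAT6-/- replicate 2, 12 rose and 6 fell. Pla2g2a, a secreted phospholipase that attacks bacterial membranes, had 1353, 953 and 244 CPM in STAT6-/- and 4.08, 4.16 and 1.76 CPM in WT (8.00 ± 0.82, adjusted p = 0.00873). Nos2, which makes antimicrobial nitric oxide, rose 200-fold, Duox2, an epithelial oxidase that makes hydrogen peroxide, rose 19.9-fold, and Lgals9, a galectin, rose 5.33-fold. Retnlb, the goblet cell resistin-like protein that binds bacterial lipids, had 203, 109 and 25.2 CPM against 10.2, 2.92 and 1.48 CPM and rose (adjusted p = 0.023). Saa1, a serum amyloid of the epithelium and the most abundant gene of the list by mean FPKM, had 2092 ± 1654 against 3371 ± 1056 CPM (SD, n = 3 each) and did not pass (adjusted p = 0.395). Unlike Reg3b and Reg3g, Pla2g2a and Nos2 were high in each of the 3 STAT6-/- libraries.

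The genes for signals that drive antibacterial expression formed a list of 40, of which 31 were tested. Of these, 11 rose and 0 fell (35.5% called, against 22.9% of all tested genes), with a median log2 fold change of 0.66. By unadjusted p 13 of the 31 were below 0.05. Leaving out STAT6-/- replicate 1 or WT replicate 1, 5 rose, and without STAT6-/- replicate 2, 13 rose and 2 fell. Socs3 rose 16.7-fold (adjusted p = 0.0121), Nod2, a sensor of bacterial peptidoglycan fragments, rose 11.5-fold (0.0122), and Il4ra, the receptor chain for interleukin-4 and interleukin-13, rose 4.61-fold (0.0134). Il13, an inducer of Ang4 and Retnlb in mouse gut that signals through STAT6, had 1.68, 2.40 and 0.582 CPM in STAT6-/- and 0.059, 0.062 and 0 CPM in WT and rose (0.0151). Stat3 had 232, 221 and 370 CPM against 134, 131 and 99.6 CPM and rose by 1.18 ± 0.25 on the log2 scale. Klf4, a goblet cell transcription factor and the most abundant gene of the list by mean FPKM, had 947 ± 77.0 against 721 ± 91.3 CPM (adjusted p = 0.168).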

How the data were processed

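Colon RNA of 3 STAT6-/- and 3 WT libraries was analysed. The authors deposited, for each library, a table with expected counts of each RefSeq transcript, and beside them FPKM, a level per transcript length and library size. The submitters' processing notes name the mouse build mm10 and the tools Bowtie2 2.2.5 and RSEM 1.2.12. The lowest FPKM listed is 0.01, and transcripts missing from a library were taken as 0.

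Expected counts were summed per gene and rounded. Of 28238 transcripts, 27986 were named from a GRCm38.p6 RefSeq table, the same assembly as mm10. GENCODE M21 named 149 more, and 103, with 0.167% of counts, kept no name. The test of genotype was the robust quasi-likelihood F test of edgeR 4.0.16 under R 4.3.3, after filterByExpr and with TMM factors. Benjamini-Hochberg adjustment ran over 15066 genes at a threshold of 0.05, and "rose" and "fell" mark genes that passed. An adjusted p with no test named is from edgeR. The SE is the log2 fold change over the square root of F. Alternatives used other scalings and filters, DESeq2 1.42.0, limma 3.58.1 (voom, and log2 FPKM plus 1 or 0.1), a block for the replicate number, and each library left out. The edgeR step was tested on simulated data that gave all genes 1 dispersion, 0.102. It recovered 98% of 4-fold but 18% of 2-fold changes, with 8 false calls among 123. The simulation changed 200 genes, far fewer than passed in the data, so these shares do not give the share recovered here. Changes of 2-fold could be missed, though Galnt12 passed at 1.89-fold. Genes with a wider or a tighter spread were not simulated.

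The members, lists and tests were chosen with earlier results of these data known. All 10 members are named. For each list, up to 4 passing genes with the smallest p in each direction and the most abundant gene are eligible, and not every eligible gene is reported here. For Lypd8, Reg3b and Ang4, the 3 other genes with the highest Pearson r over 6 libraries are named, from genes whose log2 CPM averaged 5 or more. Muc2, Tff3, Klk1, Kit, Egf, Dll1, Lyz2, Stat3, Il22, Retnlb as an antibacterial gene and the Hox genes were named after their values were seen. Promoter sequences are from RefSeq (GRCm38.p6), which matched 9 of the 10 members, all but Zg16. Figures were drawn with matplotlib 3.10.9.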

Additional observations from a re-analysis of the deposited data

How the results depend on the processing

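With 3 libraries a group, small changes and genes near 3 counts could not be resolved. The count of changed genes, 3449, stayed within 1.5 times that value in the alternatives that kept all libraries, and leaving out a library gave 18 (WT replicate 3) to 5190 (STAT6-/- replicate 2). Without WT replicate 2 it was 31, without WT replicate 1 it was 1407 and without STAT6-/- replicate 1 it was 1786. Changed members numbered 1 with all libraries and 0 to 5 when a library was left out. With a filter of 1 CPM they numbered 0 in edgeR, since Ang4 was then not tested, with 3 of 6 tested members at an unadjusted p below 0.05. They numbered 0 also without WT replicate 2 or 3, with 2 and 3 members at such a p. They numbered 2 with DESeq2, log2(FPKM + 0.1) and the replicate block (Reg4 and Ang4 each time), and 2 under epithelial scaling (Lypd8 and Ang4), where calls split into 551 higher and 4222 lower, 11.5% higher against 49.8% in the original fit. DESeq2 gave no p for Reg3b or Reg3g. An adjusted p below 0.05 was found for Ang4 in 17 of 19 settings. Among those 17 is the sum with Ang and Ang2, which is not a value of Ang4 itself.

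The Lyz1 log2 fold change turned to -0.0643 with voom, -0.000805 with log2(FPKM + 0.1), -0.0919 with the replicate block and -0.494 under epithelial scaling, and ranged from -0.48 to 0.46 when a library was left out. For Zg16 that range was -1.23 to 0.0562, positive without STAT6-/- replicate 1 or 3. The causes were not tested. Without WT replicate 2 or WT replicate 3, edgeR called 0 genes of the goblet list (4 and 5 at an unadjusted p below 0.05), the Paneth list (2 and 2), the secreted antibacterial list (11 and 14), the signal list (11 and 12), the stromal list (7 and 6) and the adipocyte list (5 and 5). Of the absorptive list, 1 gene fell and 0 rose without WT replicate 2, and 0 passed without WT replicate 3 (4 and 5 at such a p). Same-numbered libraries share only a number: their deviations correlated at 0.023, 0.044 and 0.134, and STAT6-/- replicate 2 correlated better with WT replicate 1 (0.054). The replicate block gave 2664 changed genes. Lypd8 has no value with genes over 1% of a library left out. A planned sum over intelectin genes was not run because Itln1 is the only intelectin gene with counts here.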
